A study of Macaca mulatta with 10 samples.

Results

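The genes described here carry the symbols KIF, CENP, CDCA, NCAP, BUB or AURK, and encode kinesin motors, proteins of the centromere and kinetochore, condensin subunits, spindle checkpoint proteins, Aurora kinases and cell division cycle associated proteins. They were chosen by the start of the annotated symbol, a rule that uses no measured value, although earlier results of these data were known. The rule found 65 of the 13191 measured genes, of which 34 have a KIF symbol, 18 CENP, 4 CDCA, 4 NCAP, 1 BUB and 4 AURK. Kinesins walk along or take apart microtubules. Some of them work in the mitotic spindle, where they place chromosomes and help to divide the cell, and others carry vesicles, organelles and ciliary cargo in cells that are not dividing. Kinetochores form on centromeric chromatin and tie chromosomes to spindle microtubules, the checkpoint holds the cell until all of them are attached, and condensin compacts chromosomes for their separation. Embryonic stem cells divide fast, and most genes for mitotic proteins are transcribed in dividing cells.

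For the description, the members were divided by role. The mitotic members number 34 and are made up of 8 mitotic kinesins (CENPE, which is a kinesin, is among them), 15 other centromere and kinetochore genes, 4 condensin genes, 4 checkpoint and Aurora kinase genes, and CDCA2, CDCA3 and CDCA8. The transport kinesins number 15, including KIFAP3, which is no motor but the accessory subunit of kinesin-2. The remaining 16 are 12 other kinesins, CDCA7L, and 3 genes placed in none of these roles (CENPJ, CENPV and AURKAIP1). The other kinesins have roles in cilia, signalling, the cell cortex or both interphase and mitosis, or roles not known here. KIFBP, which binds kinesin motors and blocks them, is counted among these 12. Other genes with these prefixes, such as KIF11, BUB1 and BUB1B, had no probe set assigned to them alone in the annotation used. They are therefore not among the 13191 measured genes.

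All samples came from the rhesus macaque line ORMES6, a line of embryonic stem (ES) cells, and were measured on 10 Affymetrix arrays in 5 groups of 2. These were IVDS3 (in vitro differentiation stage 3), IVDS2 (stage 2), IVDS2-C (the central foci of colonies at stage 2), IVDS2-P (the peripheral area of such colonies) and ES (undifferentiated cells). The ES cells were grown on mouse embryonic fibroblast feeders in medium with basic FGF, and for differentiation toward the liver lineage they were grown together with hESdF, cells resembling fibroblasts that had been derived from human ES cells. All groups are of 1 cell line, and the labels do not say whether feeder or co-cultured cells were removed before RNA extraction. Nor do they say that repeats were separate cultures, so the p-values measure only the spread between these samples, which may be technical.

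Values are log2 expression values from which the authors' table has taken the median of each probe set over the 10 arrays, so 0 marks the median array for that gene. They give differences between arrays and no level, and cannot be compared between genes. "Rose" and "fell" are used where limma gave an adjusted p under 0.05, and differences are given as log2 ± standard error (SE) with 2 arrays per group.

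Markers of the starting cells moved with the groups. POU5F1, which encodes the pluripotency factor OCT4, read -4.55 and -4.37 on the IVDS3 arrays, against 2.98 and 3.30 on the ES arrays. It read -0.50 and -3.38 on the IVDS2-C arrays, against 1.85 and 1.10 on the IVDS2-P arrays. The labels call the cell type ESC in all 10 samples, but 7 of 9 measured pluripotency markers fell in IVDS3 against ES and 1 rose, beside 28.6% of all genes lower and 21.1% higher. Of 12 fibroblast markers, 7 rose in IVDS3 against ES and 2 fell, and the median of the list was 0.92 and 0.82 on the IVDS3 arrays, against -0.28 and -0.10 on the ES arrays. Of 6 measured neuronal markers, 4 rose in IVDS3 against ES and 1 fell, and their median was 0.83 and 0.45 on the IVDS3 arrays, against -0.69 and -1.01 on the ES arrays. The part of these markers' cells in the results below was not tested. In such bulk samples, fewer dividing cells and less RNA per dividing cell cannot be told apart.

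**Figure D1:**
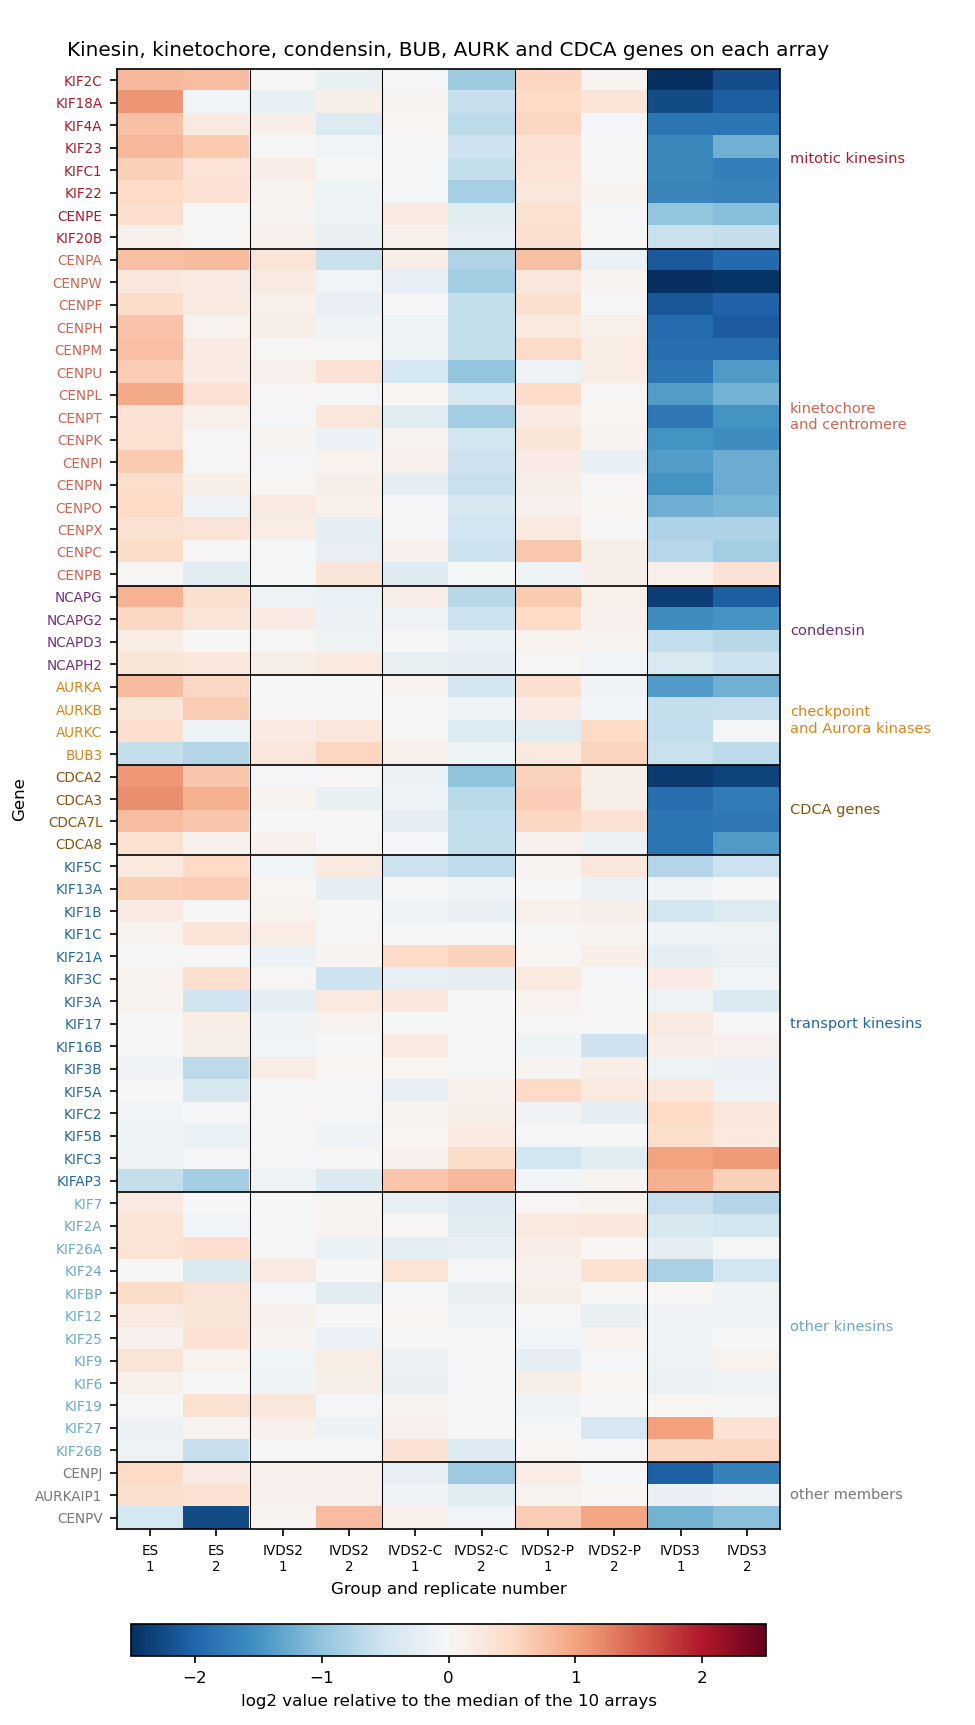
Heat map of the 65 genes (rows, grouped by role and sorted by the difference between IVDS3 and ES) on the 10 arrays (columns, by group and replicate number). Colour gives the log2 value relative to the median of the 10 arrays, from -2.5 (blue) to 2.5 (red). Most mitotic rows are darkest blue on both IVDS3 arrays and pale red on the ES arrays, whereas the transport kinesins stay pale on most arrays.

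The mitotic members followed a common order over the 5 groups. IVDS3 had the lowest group mean for 32 of 34, against 39.1% of all genes, and ES had the highest for 29, against 37.3% of all genes. IVDS2-C had the second-lowest mean for 31 of the 34 genes, against 35.1% of all genes. The median of the mitotic members was -1.58 and -1.42 on the IVDS3 arrays, -0.01 and -0.54 on the IVDS2-C arrays, 0.33 and 0.06 on the IVDS2-P arrays, 0.08 and -0.06 on the IVDS2 arrays, and 0.50 and 0.20 on the ES arrays. The 2 IVDS3 arrays lie apart from the other 8, both IVDS2-C arrays lie below both IVDS2-P arrays, and IVDS2 overlaps with each of these groups. The median of all 13191 genes stayed between -0.05 and 0.08 on all 10 arrays.

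Replicates of a group also differed along this axis. On the replicate 1 array, 33 of the 34 mitotic members read higher in IVDS2-C, 30 in IVDS2-P, 24 in IVDS2, 32 in ES and 12 in IVDS3. The median gap between the replicates was 0.54 in IVDS2-C, 0.28 in IVDS2-P and 0.28 in ES. These gaps are of the size of the stage 2 differences described further on.

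**Figure D2:**
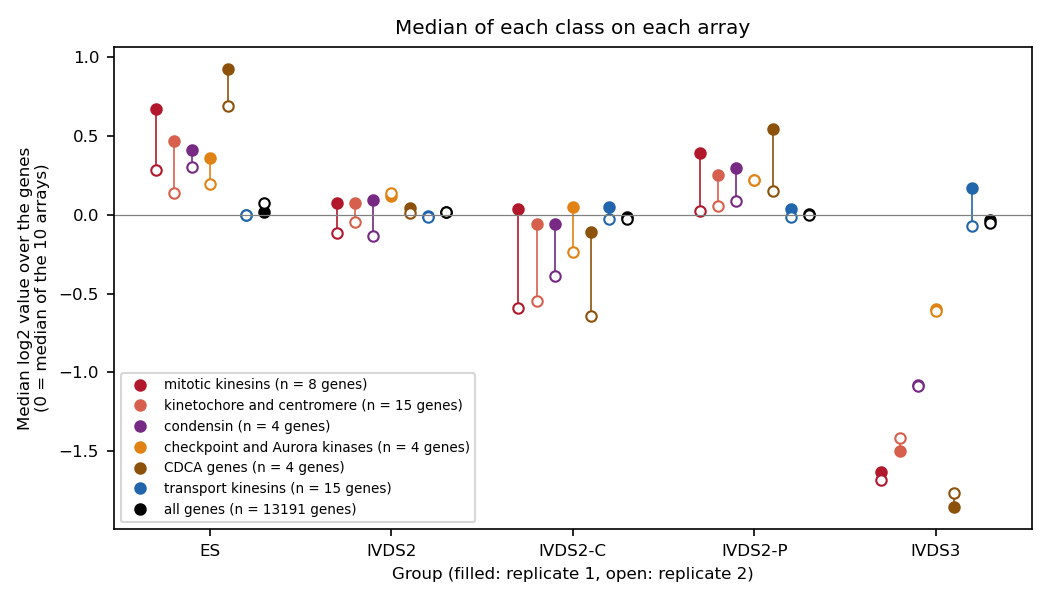
Median log2 value of the genes of each role (colours) and of all 13191 genes (black) on each array, by group on the x axis. Filled points are replicate 1 and open points replicate 2, joined by a line. The mitotic kinesins stand at -1.63 and -1.68 on the IVDS3 arrays, against 0.67 and 0.28 on the ES arrays, while the transport kinesins stay between -0.07 and 0.17 on all arrays.

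IVDS3 was compared with ES to ask which mitotic and transport genes differ between differentiated and undifferentiated cells. Of the 34 mitotic members, 31 fell and 0 rose by limma (0 higher also at an unadjusted p under 0.05), and 3 were not called. Over all genes, 28.6% fell and 21.1% rose in this comparison. The median difference of the mitotic members was -1.94, against -0.13 over all genes, and it was -2.18 when only replicate 1 of each group was used and -1.62 with only replicate 2. Of all 65 genes, 49 were called either way, against 49.7% of all genes. Leaving out any 1 of the 10 arrays left 30 or 31 lower, and KIF20B was the member whose call was lost.

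All 8 mitotic kinesins fell. KIF2C, a centromeric kinesin that takes microtubules apart to correct faulty attachments, read -2.49 and -2.21 on the IVDS3 arrays, against 0.81 and 0.78 on the ES arrays. Its IVDS3 arrays lay far below both ES arrays, and it fell by 8.85-fold (log2 difference -3.15 ± 0.26, adjusted p = 2.24e-05). KIF23, the motor of the centralspindlin complex that is needed for cytokinesis, read -1.62 and -1.21 in IVDS3, against 0.83 and 0.66 in ES (-2.16 ± 0.21, adjusted p = 4.61e-05). KIFC1, a minus-end motor that gathers spindle poles, read -1.61 and -1.70 in IVDS3, against 0.60 and 0.35 in ES (-2.13 ± 0.20, adjusted p = 3.82e-05). For neither gene did the groups overlap.

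KIF18A, which steadies chromosomes at the spindle equator, read -2.23 and -2.05 in IVDS3, against 1.10 and -0.08 in ES (-2.65 ± 0.35), where the ES arrays lay far apart without reaching the IVDS3 values. The chromosome-bound kinesins KIF4A (-2.30 ± 0.29) and KIF22 (-2.09 ± 0.22) fell by similar sizes, within their errors of each other. CENPE, the kinetochore motor that carries chromosomes to the equator, fell less (-1.25 ± 0.21), and KIF20B, a kinesin of late cytokinesis, fell least of the 8 (-0.64 ± 0.16, adjusted p = 0.0103). The call for KIF20B was lost without IVDS3 replicate 2 (adjusted p = 0.0558), and 1 of its 4 probe sets was called.

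Among the 15 centromere and kinetochore genes, 14 fell and CENPB was not called. CENPA, the histone H3 variant that marks centromeres, read -2.10 and -1.95 in IVDS3, against 0.75 and 0.80 in ES, a fall of 6.94-fold (-2.80 ± 0.38, adjusted p = 0.000328). CENPW, a histone-fold partner of CENPT in the inner kinetochore, read -2.58 and -2.45 in IVDS3, against 0.27 and 0.20 in ES (-2.75 ± 0.21, adjusted p = 1.35e-05). CENPM, a subunit of the inner kinetochore network, read -1.88 and -1.91 in IVDS3, against 0.75 and 0.20 in ES (-2.37 ± 0.21, adjusted p = 2.82e-05). In each of the 3 genes the groups were apart by far more than their replicates. CENPF, a coiled-coil protein of the outer kinetochore, read -2.12 and -2.02 in IVDS3, against 0.47 and 0.22 in ES (-2.41 ± 0.22, adjusted p = 3.62e-05).

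The other 10 that fell were CENPH (-2.41 ± 0.22), CENPU (-2.03 ± 0.23), CENPL (-1.95 ± 0.22), CENPT (-1.89 ± 0.20), CENPK (-1.72 ± 0.19), CENPI (-1.66 ± 0.25), CENPN (-1.65 ± 0.16), CENPO (-1.39 ± 0.19), CENPX (-1.13 ± 0.19) and CENPC (-1.03 ± 0.25), all of them subunits of the constitutive inner kinetochore network. CENPC, the bridge between CENPA chromatin and the outer kinetochore, and CENPX, which also acts in DNA repair, fell least. CENPB, which binds a sequence motif in centromeric satellite DNA, did the opposite in sign, with 0.13 and 0.35 in IVDS3, against 0.03 and -0.28 in ES. The groups did not overlap, but the difference was small and not called (0.37 ± 0.18, adjusted p = 0.121).

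All 4 condensin genes fell, unequally. NCAPG, a subunit of condensin I, which reaches chromosomes after the nuclear envelope opens, read -2.35 and -2.06 in IVDS3, against 0.87 and 0.41 in ES (-2.84 ± 0.29, adjusted p = 6.07e-05). Its counterpart in the nuclear complex condensin II, NCAPG2, read -1.55 and -1.47 in IVDS3, against 0.52 and 0.32 in ES (-1.93 ± 0.19, adjusted p = 5.72e-05). NCAPH2, the condensin II subunit that closes the ring, read -0.39 and -0.53 in IVDS3, against 0.29 and 0.29 in ES (-0.75 ± 0.11, adjusted p = 0.000402). NCAPD3, also of condensin II, fell by about as much as NCAPH2 (-0.76 ± 0.12). The difference between these subunits in the size of the fall was not tested.

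Of the checkpoint and Aurora kinase genes, AURKA and AURKB fell, and AURKC and BUB3 were not called. AURKA, the kinase of spindle poles, read -1.42 and -1.20 in IVDS3, against 0.80 and 0.52 in ES (-1.97 ± 0.21, adjusted p = 7.94e-05). AURKB, the kinase of the chromosomal passenger complex, read -0.59 and -0.58 in IVDS3, against 0.30 and 0.63 in ES (-1.04 ± 0.14, adjusted p = 0.000287). Neither gene's groups overlapped. AURKC, known for its part in meiosis, read -0.61 and -0.02 in IVDS3, against 0.42 and -0.14 in ES, with arrays of the groups overlapping (-0.46 ± 0.30, adjusted p = 0.228). BUB3, a checkpoint protein that docks its partners at the kinetochore, read -0.56 and -0.65 in IVDS3, against -0.59 and -0.73 in ES (0.06 ± 0.15, adjusted p = 0.781), and both groups were at its lowest values of the series.

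The CDCA genes fell together. CDCA2, which brings protein phosphatase 1 to chromosomes at the end of mitosis, read -2.39 and -2.32 in IVDS3, against 1.08 and 0.70 in ES, and at 9.44-fold it had the largest fall of all 65 genes (-3.24 ± 0.26, adjusted p = 1.86e-05). CDCA3, which promotes entry into mitosis, read -1.88 and -1.75 in IVDS3, against 1.17 and 0.89 in ES (-2.84 ± 0.22, adjusted p = 1.6e-05). CDCA7L, a MYC-binding nuclear protein that was not counted as mitotic, read -1.82 and -1.78 in IVDS3, against 0.77 and 0.68 in ES (-2.53 ± 0.14, adjusted p = 2.71e-06). In all 3 the IVDS3 arrays were the lowest of the series and the ES arrays the highest. CDCA8, the borealin subunit of the chromosomal passenger complex, fell by less (-1.86 ± 0.21).

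**Figure D3:**
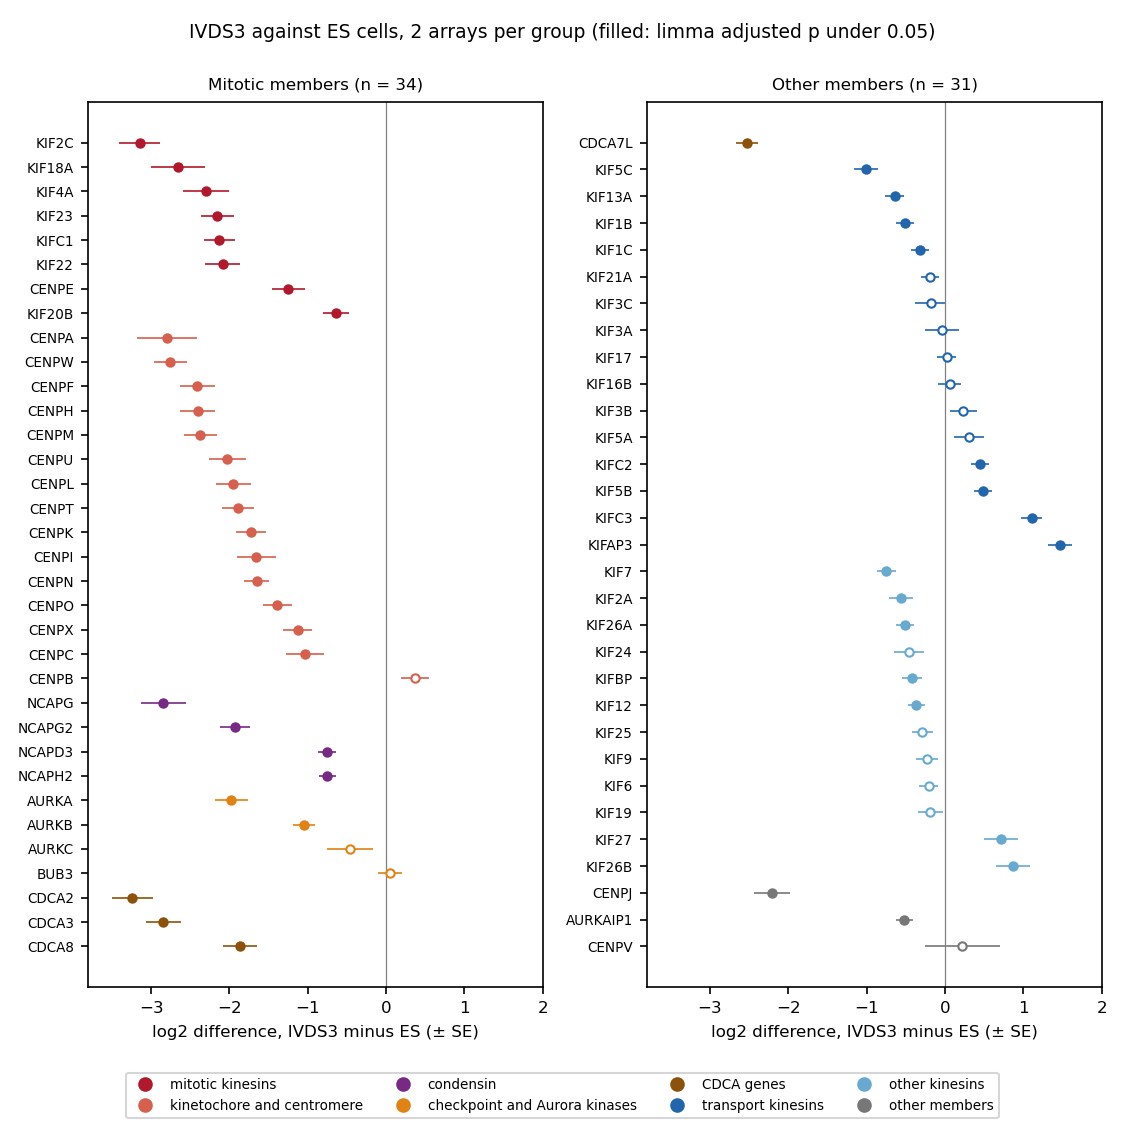
Log2 difference between IVDS3 and ES (x axis, IVDS3 minus ES, ± SE from limma, 2 arrays per group) for each of the 34 mitotic members (left) and the other 31 genes (right), coloured by role. Filled points have an adjusted p under 0.05. All filled points on the left are below 0, and the transport kinesins on the right lie on both sides of 0, from -1.01 (KIF5C) to 1.47 (KIFAP3).

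Transport kinesins did not share this fall. Of the 15, 4 rose, 4 fell and 7 were not called in IVDS3 against ES, beside 21.1% of all genes higher and 28.6% lower. Their median difference was 0.02, against -0.13 over all genes. KIFAP3, the subunit that joins the kinesin-2 motors KIF3A and KIF3B to their cargo, read 0.89 and 0.59 in IVDS3, against -0.60 and -0.85 in ES. All IVDS3 values lay above all ES values, and it rose by 2.76-fold (1.47 ± 0.15, adjusted p = 6.18e-05). The motor subunits it serves, KIF3A (-0.04 ± 0.22), KIF3B (0.24 ± 0.17) and KIF3C (-0.18 ± 0.20), were not called in any of the 6 comparisons.

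KIFC3, a minus-end motor of epithelial cells that works at cell junctions, read 1.01 and 1.07 in IVDS3, against -0.08 and -0.06 in ES. The replicates of each group lay close together, and it rose by 2.16-fold (1.11 ± 0.13, adjusted p = 0.000159). The kinesin-1 heavy chains went different ways. KIF5B, the form found in most tissues, read 0.43 and 0.25 in IVDS3, against -0.11 and -0.17 in ES (0.48 ± 0.11, adjusted p = 0.00598, but 0.0554 without IVDS3 replicate 1). KIF5C, a form enriched in neurons, read -0.73 and -0.54 in IVDS3, against 0.24 and 0.51 in ES (-1.01 ± 0.15, adjusted p = 0.000539). The neuronal KIF5A was not called (0.31 ± 0.19). KIFC2, a minus-end motor known from the brain, rose slightly (0.45 ± 0.11, adjusted p = 0.0103, and 0.0885 without IVDS3 replicate 1), so the risers numbered 2 without that array.

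KIF13A, a motor that moves endosomes to the cell periphery, was lower in every group than in ES, by nearly the same amount. It read -0.08 and 0.00 in IVDS3, against 0.60 and 0.61 in ES (-0.64 ± 0.12, adjusted p = 0.00227). At stage 2 the difference from the same ES arrays was -0.67 ± 0.12 in IVDS2-C, -0.68 ± 0.12 in IVDS2-P and -0.71 ± 0.12 in IVDS2, each called. No other transport kinesin was called in all 4 comparisons with ES. KIF1B (-0.51 ± 0.11), a carrier of mitochondria and synaptic vesicle precursors, and KIF1C (-0.32 ± 0.11), a related vesicle motor, also fell in IVDS3. The call of KIF1C (adjusted p = 0.0442) was lost when the arrays were centred on their medians (adjusted p = 0.0822) and when any 1 array but ES replicate 1 was left out. KIF16B, KIF17 and KIF21A were not called there, with differences from -0.19 ± 0.11 (KIF21A) to 0.06 ± 0.15 (KIF16B).

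Against IVDS2, the IVDS3 group showed the same division. Here 31 of the 34 mitotic members fell and 0 rose (0 also at an unadjusted p under 0.05), against 22.2% of all genes lower and 17.6% higher, with a median difference of -1.51, against -0.10 over all genes. Of all 65 genes, 44 were called either way, against 39.7% of all genes. CENPW fell most, with -2.58 and -2.45 in IVDS3, against 0.23 and -0.06 in IVDS2 (-2.60 ± 0.21, adjusted p = 2.59e-05). CDCA2 (-2.35 ± 0.26) and KIF2C (-2.27 ± 0.26) followed. CENPB (0.12 ± 0.18), AURKC (-0.56 ± 0.30) and CENPC (-0.68 ± 0.25, adjusted p = 0.0546) were not called. Among the transport kinesins 4 rose and 2 fell, led by KIFC3 (1.04 ± 0.13) and KIF5C (-0.71 ± 0.15). Without IVDS2 replicate 1, IVDS2 replicate 2 or IVDS3 replicate 1, 2 of these rose, and without IVDS2 replicate 1 or IVDS3 replicate 1, 1 fell.

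At stage 2, the colony centre was compared with ES cells to ask how far the mitotic genes differed there. In IVDS2-C, 19 of the 34 mitotic members fell and 1 rose, against 16.5% of all genes lower and 13.7% higher, and the median difference was -0.75, against -0.11 over all genes. Of all 65 genes, 29 were called either way, against 30.1% of all genes. Those that fell were 4 of 8 mitotic kinesins, 8 of 15 centromere and kinetochore genes, 3 of 4 condensin genes, both AURKA and AURKB, and CDCA2 and CDCA3. All but 1 of the 34 had a difference below 0, against 61.6% of all genes. These comparisons share their ES arrays with that of IVDS3, so the values stand side by side here and are no separate evidence.

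CDCA2 read -0.15 and -1.0 in IVDS2-C, against 1.08 and 0.70 in ES (-1.46 ± 0.26, adjusted p = 0.00354). CDCA3 read -0.08 and -0.67 in IVDS2-C, against 1.17 and 0.89 in ES (-1.41 ± 0.22, adjusted p = 0.0019). KIF2C read -0.03 and -0.89 in IVDS2-C, against 0.81 and 0.78 in ES (-1.25 ± 0.26, adjusted p = 0.00774). In these 3 genes the groups did not overlap, although the second IVDS2-C array lay well below the first, and their calls, alone among the 20 mitotic ones, held whichever array was left out. Other falls were those of CENPU (-1.13 ± 0.23), CENPL (-0.83 ± 0.22), KIF23 (-0.99 ± 0.21), NCAPG (-0.90 ± 0.29) and AURKA (-0.85 ± 0.21), each lost without IVDS2-C replicate 2. The remaining kinetochore genes that fell were CENPM, CENPT, CENPW, CENPH, CENPN and CENPX, from -0.84 ± 0.21 (CENPM) to -0.60 ± 0.19 (CENPX). The remaining kinesins were KIF22 (-0.86 ± 0.22) and KIFC1 (-0.78 ± 0.20), and NCAPG2 (-0.74 ± 0.19), AURKB (-0.52 ± 0.14) and NCAPH2 (-0.50 ± 0.11) completed the 19. These calls too were lost without that array.

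The count in IVDS2-C rested on single arrays. It was 3 lower without IVDS2-C replicate 2, 8 without ES replicate 1, 24 without IVDS2-C replicate 1, and 5 when only the 4 arrays compared were fitted. The second IVDS2-C array, on which 33 of 34 mitotic members read lower than on the first, also had a lower median of the 9 pluripotency markers (-0.91, against -0.23 on the first) and a higher median of the 6 neuronal markers (0.71, against 0.17 on the first). The median of the 12 fibroblast markers was lower on the second array (-0.14, against 0.16 on the first). In ES (1.42, against 0.31) and IVDS2-P (0.61, against 0.46), the array with the lower mitotic median had the higher pluripotency median. So it did in IVDS3 (-2.49, against -2.58), and in IVDS2 it had the lower one (-0.04, against 0.14). The part of these markers in the result was not tested.

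In the periphery and the whole stage 2 culture few mitotic members were called against ES. In IVDS2-P, 0 of the 34 mitotic members fell by limma and 1 rose, against 4.67% of all genes lower and 6.31% higher. Of the 34, 5 were lower at an unadjusted p under 0.05, against 14.8% of all genes, and 30 had a difference below 0, against 60.1% of all genes. Of all 65 genes, 4 were called either way in IVDS2-P, against 11% of all genes, and 8 in IVDS2, against 12.7% of all genes. The median difference of the mitotic members in IVDS2-P was -0.23, against -0.08 over all genes. In IVDS2, 2 mitotic members fell and 1 rose, against 6.23% of all genes lower and 6.5% higher. There 10 were lower at an unadjusted p under 0.05, against 14.1% of all genes, 31 had a difference below 0, against 56.8% of all genes, and the median was -0.37, against -0.04 over all genes. The 2 were CDCA3, with 0.08 and -0.18 in IVDS2, against 1.17 and 0.89 in ES (-1.08 ± 0.22, adjusted p = 0.0139), and KIF23, with 0.01 and -0.07 in IVDS2, against 0.83 and 0.66 in ES (-0.77 ± 0.21, adjusted p = 0.0431). KIF23 lost its call without either array of either group, and CDCA3 without ES replicate 1 or IVDS2 replicate 2. The number lower was 0 without IVDS2 replicate 2, 1 without IVDS2 replicate 1 or ES replicate 1, and 6 without either IVDS2-C array. CDCA7L fell as well (-0.73 ± 0.14, adjusted p = 0.00961), but not without IVDS2 replicate 2 (adjusted p = 0.0579). In IVDS2-P, 1 mitotic member fell without ES replicate 1.

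BUB3 was the mitotic member that rose at stage 2. It read 0.13 and -0.13 in IVDS2-C, 0.24 and 0.56 in IVDS2-P and 0.29 and 0.53 in IVDS2, against -0.59 and -0.73 in ES. All 6 stage 2 arrays lay above both ES arrays. The rise was 0.66 ± 0.15 in IVDS2-C (adjusted p = 0.012), 1.06 ± 0.15 in IVDS2-P (adjusted p = 0.00388) and 1.07 ± 0.15 in IVDS2 (adjusted p = 0.00252). In IVDS3 it fell against IVDS2 (-1.01 ± 0.15, adjusted p = 0.000855). The call in IVDS2-C was lost without ES replicate 2 (adjusted p = 0.0564) or IVDS2-C replicate 1 (adjusted p = 0.0712). BUB3 has 1 probe set.

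**Figure D4:**
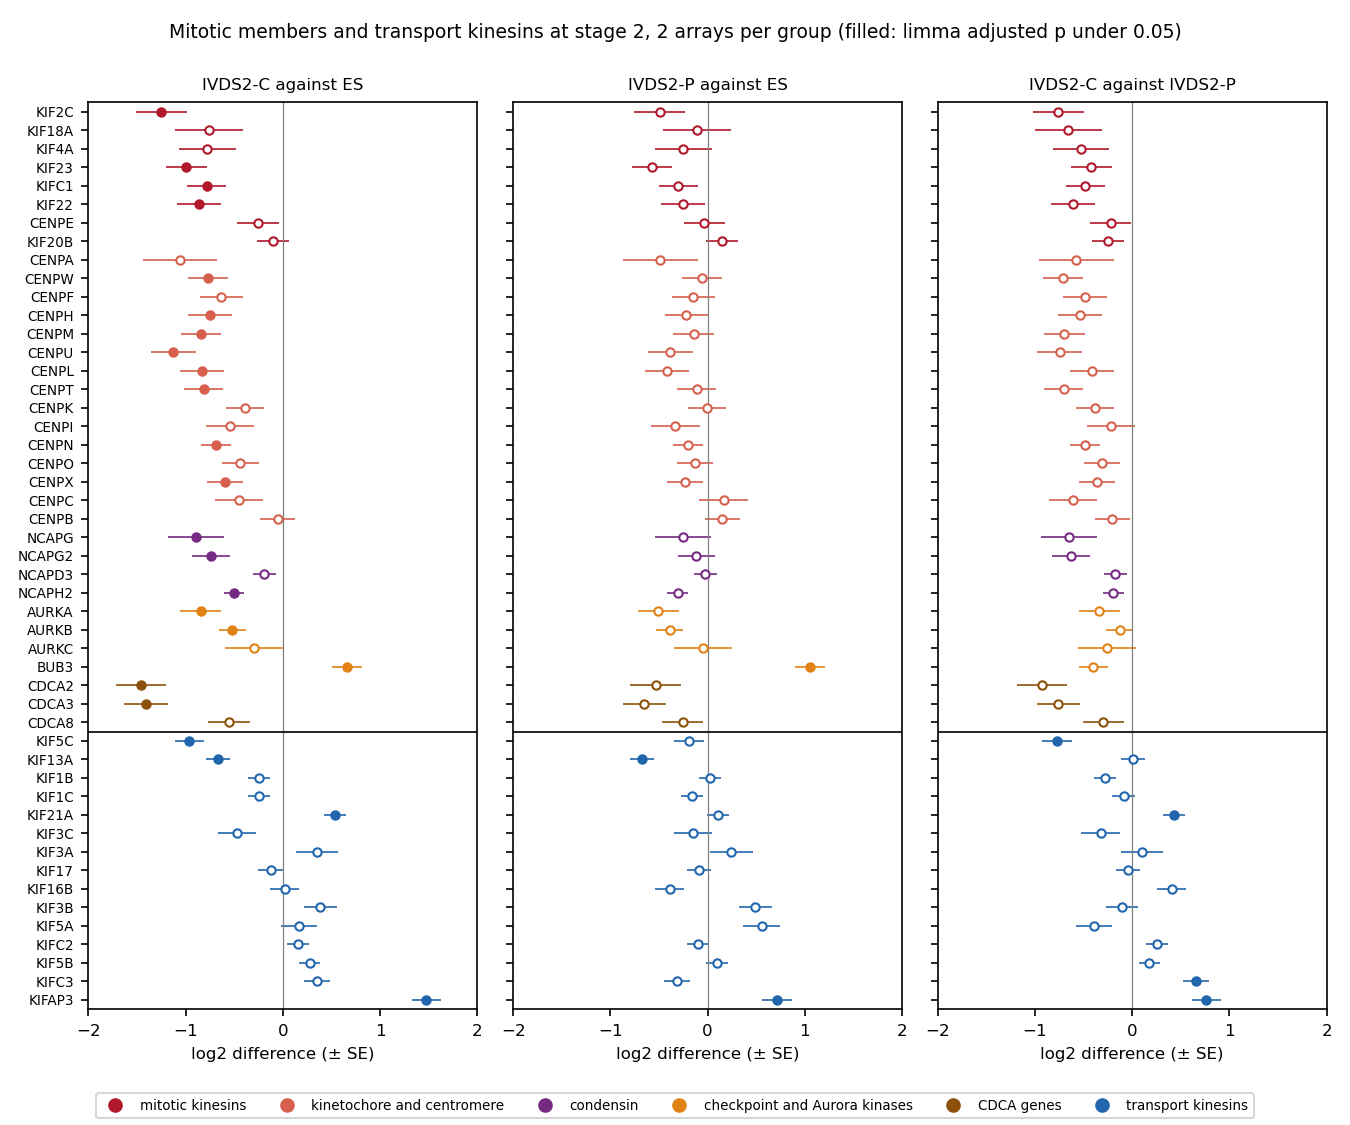
Log2 differences (x axes, ± SE from limma, 2 arrays per group) of the 34 mitotic members (above the line) and the 15 transport kinesins (below it) for IVDS2-C minus ES, IVDS2-P minus ES and IVDS2-C minus IVDS2-P. Filled points have an adjusted p under 0.05. In the right panel all 34 mitotic points lie below 0 and none is filled, while 4 transport kinesins are filled.

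The comparison of the colony centre with its periphery asked whether mitotic genes differ by position. All 34 mitotic members had a lower mean in IVDS2-C than in IVDS2-P, against 55.5% of all genes, and the median difference was -0.48, against -0.03 over all genes. By limma 0 of them were called, and 14 were lower at an unadjusted p under 0.05, against 3.95% of all genes called lower and 14.6% lower at that unadjusted p. The arrays of the groups did not overlap for 18 of the 34, against 35.5% of all genes lower without overlap. Of all 65 genes, 5 were called either way, against 9.59% of all genes. The largest differences were in CDCA2, with -0.15 and -1.0 in IVDS2-C, against 0.57 and 0.14 in IVDS2-P (-0.93 ± 0.26, adjusted p = 0.058), and KIF2C, with -0.03 and -0.89 in IVDS2-C, against 0.54 and 0.07 in IVDS2-P (-0.76 ± 0.26, adjusted p = 0.106). In both genes the first IVDS2-C array lay nearer to the IVDS2-P arrays than the second did. Without IVDS2-C replicate 1 the number called lower was 12, and without either ES array it was 1. A fit with the replicate number as a block also called some of the 34 lower, beside 4.9% of all genes. Their count is in the last section.

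CDCA7L, outside the mitotic group, was the member called lower in the centre besides KIF5C. It read -0.22 and -0.61 in IVDS2-C, against 0.51 and 0.36 in IVDS2-P (-0.85 ± 0.14, adjusted p = 0.00696), without overlap. The call was lost without IVDS2-P replicate 1 (adjusted p = 0.0654).

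Transport kinesins differed between centre and periphery in 4 of 15 cases, 3 higher and 1 lower, against 5.64% of all genes higher and 3.95% lower. KIFAP3 read 0.70 and 0.81 in IVDS2-C, against -0.08 and 0.06 in IVDS2-P (0.76 ± 0.15, adjusted p = 0.0163). KIFC3 read 0.10 and 0.45 in IVDS2-C, against -0.47 and -0.29 in IVDS2-P (0.66 ± 0.13, adjusted p = 0.0193). KIF5C read -0.54 and -0.64 in IVDS2-C, against 0.07 and 0.29 in IVDS2-P (-0.77 ± 0.15, adjusted p = 0.016). In these genes the sign in the centre was that of IVDS3 against ES, and the arrays of centre and periphery did not overlap. KIF21A is counted here as a transport kinesin, although it slows microtubule growth at the cell cortex. It read 0.48 and 0.59 in IVDS2-C, against 0.05 and 0.16 in IVDS2-P (0.43 ± 0.11, adjusted p = 0.0474), and the 2 IVDS2-C arrays held its highest values of the series. All 4 calls were lost without IVDS2-C replicate 2, IVDS2-P replicate 1 or IVDS2-P replicate 2, and that of KIF21A also without any 1 of the arrays of IVDS2, IVDS3 or the first of IVDS2-C.

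Against ES, the centre had higher KIFAP3 (1.47 ± 0.15, adjusted p = 0.000239) and KIF21A (0.53 ± 0.11, adjusted p = 0.00786) and lower KIF5C (-0.96 ± 0.15, adjusted p = 0.00185) and KIF13A. KIFAP3 thus stood as far above ES in the centre as in IVDS3, at 0.70 and 0.81 in IVDS2-C. Without IVDS2-C replicate 2 only KIFAP3 rose. In the periphery KIFAP3 rose less (0.71 ± 0.15, adjusted p = 0.0186) and lost its call without ES replicate 2, IVDS2-P replicate 1 or IVDS2-P replicate 2, while 3 transport kinesins rose without ES replicate 1. KIF13A lost its call there without IVDS2-P replicate 2. In whole IVDS2 cultures KIF13A fell, a call lost without IVDS2 replicate 2, and 1 transport kinesin rose without ES replicate 1.

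The other 12 kinesins moved in both directions. In IVDS3 against ES, 2 rose, 5 fell and 5 were not called, beside 21.1% of all genes higher and 28.6% lower, with a median of -0.33, against -0.13 over all genes. KIF7, which regulates Hedgehog signalling at the tip of the cilium, read -0.57 and -0.73 in IVDS3, against 0.22 and -0.01 in ES (-0.75 ± 0.12, adjusted p = 0.000847), and of the 7 called it alone lost its call under none of the 10 single-array omissions. KIF26B, linked to cell adhesion and polarity, read 0.52 and 0.51 in IVDS3, against -0.13 and -0.57 in ES (0.87 ± 0.21, adjusted p = 0.00843). The ES replicates differed by more than the IVDS3 ones, and leaving out ES replicate 2 ended the call (adjusted p = 0.0611). KIF27, a relative of KIF7 in ciliated cells, read 1.02 and 0.36 in IVDS3, against -0.14 and 0.10 in ES (0.72 ± 0.22, adjusted p = 0.0245), with a gap between its IVDS3 arrays as large as the difference, and lost its call without ES replicate 1 (adjusted p = 0.106) or IVDS3 replicate 1 (adjusted p = 0.182).

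KIF26A, a kinesin relative without motor activity, read -0.23 and -0.04 in IVDS3, against 0.34 and 0.41 in ES (-0.51 ± 0.12, adjusted p = 0.00594). It also fell in IVDS2-C (-0.59 ± 0.12) and IVDS2 (-0.44 ± 0.12) against ES. The call in IVDS2 was lost whichever array was left out, and that in IVDS3 without IVDS3 replicate 1 (adjusted p = 0.0554). KIFBP, which binds kinesin motors and blocks them, fell in IVDS3 (-0.43 ± 0.13), IVDS2-C (-0.49 ± 0.13) and IVDS2 (-0.55 ± 0.13), with each call lost without ES replicate 1 and without replicate 2 of its own group, and that in IVDS3 also without IVDS3 replicate 1. KIF2A, a microtubule depolymerase of both neurons and spindles, fell in IVDS3 (-0.56 ± 0.15), as did KIF12 (-0.37 ± 0.11). The call of KIF2A was lost without ES replicate 1 or IVDS3 replicate 2, and that of KIF12 without ES replicate 2 or either IVDS3 array. KIF6, KIF9, KIF19, KIF24 and KIF25 were not called against ES in any group.

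Of the 3 genes placed in none of the roles, CENPJ fell in IVDS3 and IVDS2-C against ES. This centriole assembly protein read -2.05 and -1.69 in IVDS3 and -0.20 and -0.91 in IVDS2-C, against 0.47 and 0.21 in ES. It fell in IVDS3 (-2.21 ± 0.23, adjusted p = 6.25e-05) and in IVDS2-C (-0.90 ± 0.23, adjusted p = 0.0167). Its call in IVDS2-C was lost without ES replicate 1 or IVDS2-C replicate 2. AURKAIP1, a protein of the mitochondrial ribosome, read -0.19 and -0.09 in IVDS3 and -0.08 and -0.26 in IVDS2-C, against 0.40 and 0.37 in ES. It fell in IVDS3 (-0.52 ± 0.11) and IVDS2-C (-0.55 ± 0.11), the second lost without IVDS2-C replicate 2. CENPV, named for its place at centromeres, had ES replicates that disagreed. It read 0.64 and 0.98 in IVDS2-P and 0.06 and 0.77 in IVDS2, against -0.44 and -2.24 in ES, and was called higher in IVDS2-P (2.15 ± 0.48, adjusted p = 0.0236) and IVDS2 (1.75 ± 0.48, adjusted p = 0.0434). All 4 of these arrays lay above both ES arrays. Without ES replicate 2 the difference in IVDS2-P was 1.25 (adjusted p = 0.052) and that in IVDS2 was 0.86 (adjusted p = 0.111). The call in IVDS2-P was also lost without either IVDS2-P array, and that in IVDS2 without any 1 array but ES replicate 1. In IVDS3 it read -1.19 and -1.04 and was not called against ES (0.22 ± 0.48).

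The members with several probe sets gave a check within the array. Of the 32 such genes, 15 had all their probe sets called in the same direction in IVDS3 against ES, 11 had some called, 6 had none, and 0 had probe sets called in opposite directions. Over all 44210 probe sets, 17.9% rose and 19.9% fell. These are shares of single probe sets, and the counts per gene were not set beside those of all genes with several probe sets. The 3 probe sets of KIFAP3 gave 1.29 ± 0.17, 1.54 ± 0.15 and 1.56 ± 0.16, and the 2 of KIF2C gave -3.18 ± 0.27 and -3.12 ± 0.26. Such probe sets agreed within their errors.

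Others did not. AURKA had 2 probe sets at -2.78 ± 0.31 and -2.91 ± 0.30, and the third at -0.23 ± 0.15 (adjusted p = 0.252). AURKB had one at -1.92 ± 0.16 and one at -0.17 ± 0.17. CENPN had 2 at -2.41 ± 0.23 and -2.38 ± 0.24, and the third at -0.17 ± 0.14. In KIF20B, 1 of 4 probe sets fell (-1.91 ± 0.30) and the others lay between -0.36 ± 0.22 and -0.04 ± 0.20. The mean over probe sets used for these genes is therefore smaller than the fall of their most responsive probe set. For AURKB that probe set gave -1.92, against -1.04 ± 0.14 for the mean. In KIF1B, 1 of 3 probe sets fell (-1.15 ± 0.21) and the other two were not called.

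**Figure D5:**
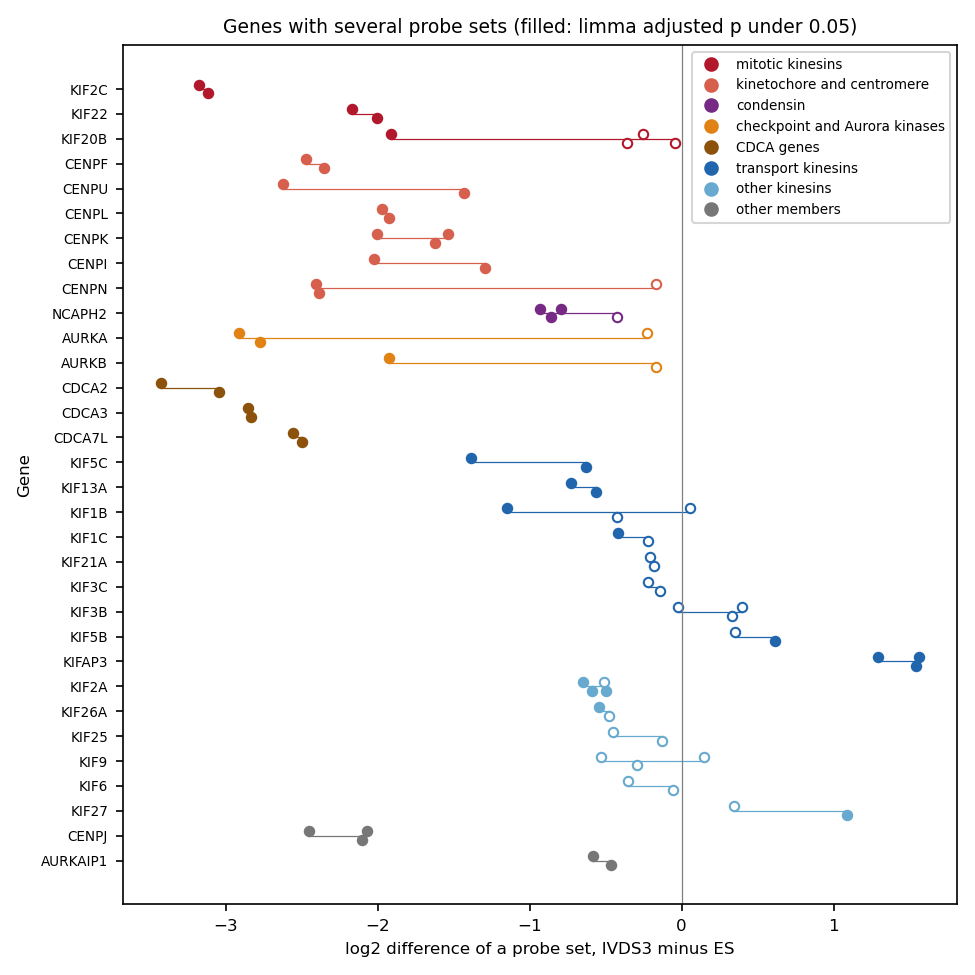
Log2 difference between IVDS3 and ES (x axis, IVDS3 minus ES) of each probe set of the 32 genes that have several, coloured by role, with a line spanning the probe sets of a gene. Filled points have an adjusted p under 0.05 over 44210 probe sets. KIF2C, CDCA3 and KIFAP3 have tight groups of points, whereas AURKA, AURKB, CENPN and KIF20B each have probe sets near 0 beside others near or below -1.9.

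Genes of the same processes without these prefixes were counted from lists chosen with earlier results known. Of 19 measured kinetochore and checkpoint partners, 16 fell and 0 rose in IVDS3 against ES by limma (0 higher also at an unadjusted p under 0.05, median -1.89, against -0.13 over all genes), 9 fell in IVDS2-C and 1 in IVDS2-P. Over all genes 28.6% fell in IVDS3, 16.5% in IVDS2-C and 4.67% in IVDS2-P. The lowest adjusted p were those of the checkpoint relative MAD2L2 (-2.05 ± 0.11), of OIP5 (-3.29 ± 0.24), which helps to load CENPA, and of NUF2 (-2.64 ± 0.20), which binds microtubules in the outer kinetochore. MIS12 was not called, with a difference of 0.18 ± 0.15. OIP5 was also called lower in the centre than in the periphery, with -0.02 and -0.75 in IVDS2-C, against 0.68 and 0.38 in IVDS2-P (-0.91 ± 0.24, adjusted p = 0.0476), where no array was left out for this gene. Of 10 spindle assembly genes, 8 fell and 0 rose in IVDS3 against ES by limma (0 higher also at an unadjusted p under 0.05, median -1.84), led by TACC3 (-2.55 ± 0.21), DLGAP5 (-1.44 ± 0.13) and ECT2 (-2.69 ± 0.26). Of 20 mitotic drivers, 17 fell and 1 rose (median -1.66). The 3 lowest adjusted p were those of WEE1 (-1.45 ± 0.11), MYBL2 (-2.42 ± 0.19) and CCNB1 (-2.92 ± 0.24), and the one that rose was RBL2 (0.98 ± 0.13), which encodes the pocket protein p130, a repressor of cell cycle genes in resting cells.

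Among the 14 genes of cohesin, separase and the condensin core, 10 fell and 1 rose (median -0.81). ESCO2, which acetylates cohesin during replication, fell (-2.98 ± 0.24), as did TOP2A, the topoisomerase of mitotic chromosomes (-2.69 ± 0.25). The one that rose was STAG1, a cohesin subunit with 1 probe set, which read 2.56 and 2.07 in IVDS3, against -0.25 and -0.04 in ES (2.46 ± 0.18, adjusted p = 1.07e-05). Its stage 2 arrays lay between -0.08 and 0.21. A list of 17 adaptors and partners of the transport kinesins also holds subunits of the motor dynein, so its count is not one of kinesin partners alone. Of the 17, 4 rose and 4 fell, beside 21.1% of all genes higher and 28.6% lower. The median was -0.11, against -0.13 over all genes. TRAK1, which links kinesin-1 to mitochondria, read 1.21 and 1.35 in IVDS3, against -1.06 and -0.56 in ES (2.09 ± 0.22, adjusted p = 7.54e-05). The dynein light intermediate chains moved apart, with DYNC1LI1 lower (-0.99 ± 0.14) and DYNC1LI2 higher (0.88 ± 0.13).

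Over the 10 arrays, 31 of the 34 mitotic members had a Pearson correlation above 0.8 with the median of the other mitotic members (median r = 0.98), against 16.4% of all genes. This is a description over arrays that share their groups, and the IVDS3 arrays lie apart from the others. The exceptions were CENPB (-0.51), BUB3 (0.40) and AURKC (0.56). Outside the mitotic group, CENPJ (0.99), CDCA7L (0.98), KIF1B (0.95), KIF7 (0.95) and KIF2A (0.91) followed it closely. Among the transport kinesins the correlations ran from -0.95 (KIFC3) through -0.93 (KIF5B), -0.91 (KIFC2) and -0.74 (KIFAP3) to 0.95 (KIF1B), with a median of 0.07.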

How the data were processed

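Total RNA of 10 samples was measured on Affymetrix rhesus macaque arrays. The deposited values are log2 values made with RMA, per the submitters' processing notes (no version given). They are centred per probe set, since 0 of 44294 probe sets had a median over the arrays beyond 1e-05, a step not given in the sources used here. The log base was read from the values. Because of the centring, no filter on dim probe sets could be applied, so genes with the smallest range were left out as an alternative.

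After 84 control probe sets were left out, 44210 remained, of which 22802 had 1 gene in the platform annotation, 316 several and 21092 none. Their mean per gene gave 13191 genes, and 22507 of the 22802 were matched to RefSeq by gene number, with 0 names changed. Levels per gene and per probe set were fitted with limma 3.58.1 (R 4.3.3) on all 10 arrays with a term per group (5 residual degrees of freedom, prior 3.94), and p-values were adjusted by Benjamini-Hochberg over all genes or all probe sets within each of 6 comparisons, called under 0.05. The fit was checked on simulated data.

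The members were set by the start of the symbol. Named in full are the 3 of each role with the lowest adjusted p in IVDS3 against ES, those called at stage 2 or higher in IVDS3, and mitotic members not called there (at most 3 of a role in full, the rest by range), and the other members, CENPA and KIF18A among them, are examples chosen after their values were seen. The members and lists were chosen with earlier results of these data known. Alternatives were centred arrays, a fit of the 4 compared arrays alone, a block for the replicate number (replicate block), for each gene its most variable probe set, genes with the lowest 25% of ranges left out, and each array left out in turn, where a lone array is assumed to vary like the other groups. No sequences or genome coordinates were used. The number of arrays limits the precision.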

Additional observations from a re-analysis of the deposited data

Results flagged for a closer look

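Flagged were 7 members from among those whose difference from ES was itself different between 2 groups by limma. Between centre and periphery (IVDS2-C minus IVDS2-P) these were CDCA7L (-0.85), KIF5C (-0.77), KIFAP3 (0.76), KIFC3 (0.66) and KIF21A (0.43), each with its adjusted p above. Between the stages (IVDS3 minus IVDS2), 44 of the 65 genes were called, against 39.7% of all genes. Flagged among these were BUB3 (-1.01) and CENPV (-1.53, adjusted p = 0.0306). Both were higher than ES in IVDS2 and not called against ES in IVDS3. The call for CENPV was lost without IVDS2 replicate 2 (adjusted p = 0.176), IVDS3 replicate 1 (adjusted p = 0.128) or IVDS3 replicate 2 (adjusted p = 0.0922). The ES replicates of CENPV were -0.44 and -2.24.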

How the results depend on the processing

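Mitotic members lower in IVDS3 numbered 31 against ES under each alternative that used all arrays of the 2 groups and 30 to 31 with 1 array left out, and 31 against IVDS2, with 31 to 32 and 28 to 32 under the same settings. At stage 2 the counts moved. Mitotic members lower in IVDS2-C against ES numbered 19, 3 to 24 with 1 array left out, and 5 with only the 4 arrays compared, where all members called were 11 and not 29, and transport kinesins higher 1 and not 2. Mitotic members higher there numbered 1, and 0 to 1 with 1 array left out. Mitotic members lower in IVDS2 against ES numbered 2, but 1 with centred arrays, 4 with only 4 arrays, 4 with the replicate number as a block and 4 without the genes of lowest range, and 0 to 6 with 1 array left out. In IVDS2-P they numbered 0, and 1 under the block (0 to 1 with 1 array left out). Between centre and periphery they numbered 0, but 6 under the block, 1 with the most variable probe set, 1 without the genes of lowest range, and 0 to 12 with 1 array left out. With only 4 arrays, transport kinesins lower numbered 0 in IVDS2 and higher 0 in IVDS2-P and 1 between centre and periphery, and members called numbered 2 in IVDS2-P and 2 between centre and periphery.

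With 1 array left out, members called ranged from 1 to 10 in IVDS2, 10 to 34 in IVDS2-C and 1 to 7 in IVDS2-P against ES, and 0 to 17 between centre and periphery. Transport kinesins ranged from 0 to 1 higher and 0 to 1 lower in IVDS2, 1 to 3 higher in IVDS2-C, 0 to 3 higher and 0 to 1 lower in IVDS2-P, and 2 to 5 higher in IVDS3 against ES. Between centre and periphery they were 0 to 3 higher and 0 to 1 lower, and between IVDS3 and IVDS2 2 to 4 higher and 1 to 2 lower. The replicate numbers are not shown to pair the samples, since the deviations of same-numbered arrays correlated from -0.21 to 0.28 over 10 pairs of groups and 5 exceeded 0.1. For IVDS2-C with IVDS2-P the correlation was 0.22. There replicate 1 read higher for 33 and 30 of the 34 mitotic members, respectively, so pairing is not excluded either. With the block, 11 members were called between centre and periphery, against 5 without it.

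Over the 65 members, 6 comparisons and 15 alternatives, no called difference changed sign, 202 calls were lost and 84 gained, and 5528 values stayed on the same side of the threshold. KIF1C, KIF6, KIF12, KIF17, KIF19 and KIF25 have no value without the genes of lowest range, since they are among those genes. With centred arrays the median of the mitotic members in IVDS3 against ES was -1.88, against -1.94. The cause of these moves was not tested. Only 2 arrays per group and the lack of absolute levels limit all values.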
